A study of Mus musculus with 9 samples.

Results

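The genes described are 10 members of the VEGF and angiopoietin systems, taken by symbol from the gene tables of 9 mouse uterus libraries. All 10 were found among 34619 unique gene symbols, and all 10 were among the 13743 genes that reached 1 FPKM in at least 3 libraries and were tested. They are the ligands Vegfa, Vegfb, Vegfc, Angpt1 and Angpt2 and the receptors Kdr, Flt1, Flt4, Tek and Tie1. FPKM, fragments per kilobase of transcript scaled to the library total, is a level per length, so levels of different genes can be set beside each other.

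The uteri came from wild-type females of the outbred stock CD-1 (ICR), bought at 7 to 8 weeks of age and kept for 1 week before exposure. The BPB group received bisphenol B and the BPAF group bisphenol AF by gavage, each at a daily dose of 300 µg/kg body weight for 28 days, and the control group received corn oil. There were 3 libraries per group. All mice had food without estrogens and corncob bedding, which the study chose to keep background bisphenol low. Nothing in the labels gives the estrous stage or says whether the 3 libraries of a group are from separate mice. The p-values weigh a group difference against the spread between libraries within groups, estimated over all 9 libraries. Whether that is a spread between mice is not known. The 2 bisphenols differ at the carbon that joins their phenol rings, which carries a methyl and an ethyl group in BPB and a pair of trifluoromethyl groups in BPAF.

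VEGF ligands are secreted factors that act through receptor tyrosine kinases on endothelial cells. VEGF-A drives the growth and permeability of blood vessels mainly through VEGFR2, the product of Kdr, whereas VEGFR1, the product of Flt1, binds VEGF-A and VEGF-B and holds VEGF-A away from VEGFR2. VEGF-C acts through VEGFR3, the product of Flt4, and is the main growth factor of lymphatic vessels. Angiopoietin 1 activates the receptor TIE2, the product of Tek, and keeps vessels quiet. Angiopoietin 2 competes with it in many settings and loosens the contact between endothelium and pericytes. TIE1 is an orphan receptor that modulates TIE2. In the uterus, blood vessels grow and regress with each cycle, and estrogen is known to raise Vegfa there.

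The promoters of 4 members are shown because Vegfb was the 1 member called between groups, Vegfa is its closest comparison among the ligands, and Kdr and Flt1 varied together between libraries. Each run is the 250 bases before the first RefSeq start site of the gene in the build GRCm38.p6, 5′ to 3′ on the strand of the gene. Of the 10 members 8 had such a window. Capitals mark the GC box and ETS-type motifs that are spelled out after the sequences, read on both strands.

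Vegfb, chr19:6987652-6987901, strand -: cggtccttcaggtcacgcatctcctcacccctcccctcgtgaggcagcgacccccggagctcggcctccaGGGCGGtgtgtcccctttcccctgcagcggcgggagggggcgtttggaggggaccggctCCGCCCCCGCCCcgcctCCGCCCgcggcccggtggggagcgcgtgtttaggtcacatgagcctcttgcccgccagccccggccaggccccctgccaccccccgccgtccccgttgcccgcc
Vegfa, chr17:46032378-46032627, strand -: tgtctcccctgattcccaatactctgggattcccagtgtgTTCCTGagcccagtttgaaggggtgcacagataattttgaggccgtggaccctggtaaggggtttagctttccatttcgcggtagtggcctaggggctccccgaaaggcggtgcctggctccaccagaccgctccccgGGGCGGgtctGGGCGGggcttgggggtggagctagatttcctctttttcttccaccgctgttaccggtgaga
Kdr, chr5:75978456-75978705, strand -: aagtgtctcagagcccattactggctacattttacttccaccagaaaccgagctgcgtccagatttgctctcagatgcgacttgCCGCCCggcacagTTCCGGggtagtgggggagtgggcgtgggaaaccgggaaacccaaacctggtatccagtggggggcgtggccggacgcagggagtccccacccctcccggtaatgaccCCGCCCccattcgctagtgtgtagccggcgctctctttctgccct
Flt1, chr5:147726012-147726261, strand -: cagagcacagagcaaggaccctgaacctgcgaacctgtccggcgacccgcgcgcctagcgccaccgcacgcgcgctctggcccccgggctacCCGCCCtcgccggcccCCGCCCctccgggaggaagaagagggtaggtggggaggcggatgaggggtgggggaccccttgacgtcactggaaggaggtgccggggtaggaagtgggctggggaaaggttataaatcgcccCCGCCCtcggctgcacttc

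The GC box GGGCGG, which SP1-type factors bind, occurred 4 times in the Vegfb window, with 2 of the copies side by side. It occurred 2 times each in the windows of Vegfa and Kdr and 3 times in that of Flt1. Among 32841 such windows of the same build 32.7% held it at least 1 time. The ETS-type word CAGGAA, held by 25.7% of all windows, occurred 1 time, in the Vegfa window. The ETS-type word CCGGAA, held by 12.0% of all windows, occurred 1 time, in the Kdr window. The hypoxia response core ACGTG (16.6% of windows) and the full estrogen response palindrome (0.0639% of windows) were searched in the same way, and their letters are not in these 4 windows. The window of a second Vegfa start site, not shown, held ACGTG 1 time. A match is a word in the sequence and not a measured binding site.

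The libraries differed in ways that touch these genes. They rested on 12620196 to 15616776 reads, and a member's value in a library on 22 to 2002 reads. Control 3 had the fewest reads and the fewest genes at 1 FPKM or more, 11614, against 12613 to 13105 in the other libraries. In control 3 the level fell off with gene length. Tested genes were put in 5 bins of exonic length. In the longest bin, 9336 to 51657 exonic bases, the median log2(FPKM + 1) of control 3 lay 0.51 below the mean of the 9 libraries, while the other 8 libraries lay between -0.12 and 0.14. Vegfa, Kdr and Flt1 are in that bin, and Flt4, Tek and Tie1 are in the next one, where control 3 lay at -0.42. Vegfb with 2154 bases and Vegfc with 1881 bases are in the shortest bin, where BPB 1, 2 and 3 lay at 0.21, -0.09 and -0.11 and BPAF 1, 2 and 3 at 0.34, 0.04 and -0.01, against -0.28, -0.22 and -0.10 in controls 1, 2 and 3. The part of gene length in the members' differences was not tested. As a check of the tissue label, the uterine transcription factor genes Hoxa10 and Hoxa11 averaged 38.4 ± 9.29 and 36.3 ± 13.4 FPKM in BPB, 54.4 ± 31.1 and 63.2 ± 38.4 in BPAF and 15.9 ± 5.31 and 17.3 ± 4.55 in control (SD, n = 3). Markers of urothelium, the lining of the bladder, were present beside them. The sum over 9 urothelial markers was 1581, 2309 and 2605 FPKM in BPB 1, 2 and 3 and 1336 FPKM in BPAF 1, against 5.01 and 12.7 FPKM in BPAF 2 and 3 and 6.10 to 9.18 FPKM in the controls. The uroplakin gene Upk3a was listed at 0 in BPAF 2, BPAF 3 and all 3 controls.

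**Figure D1:**
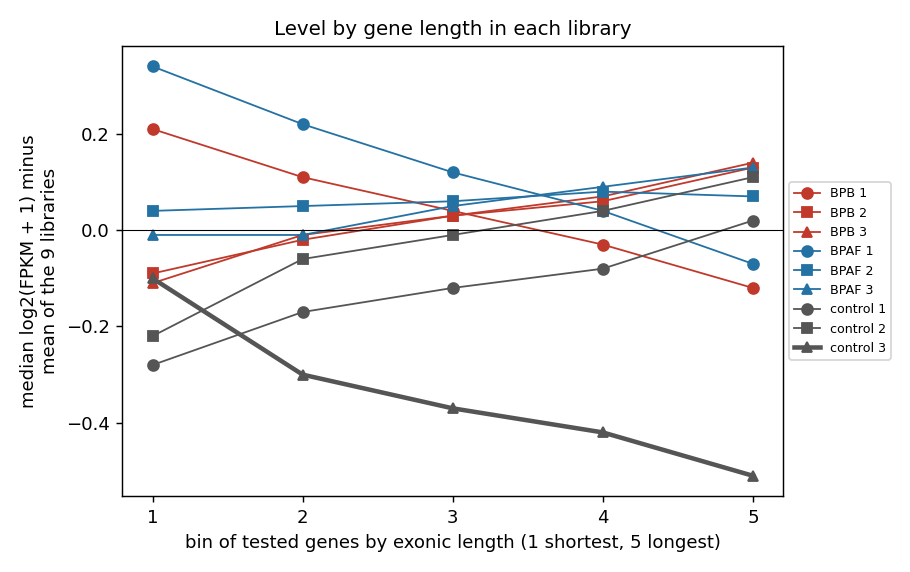
Median log2(FPKM + 1) minus the mean of the 9 libraries (vertical axis) in each of 5 bins of tested genes by exonic length (horizontal axis, 1 shortest to 5 longest), with 1 line per library. Control 3, the thick grey line, drops to -0.51 in the longest bin, and the other libraries lie between -0.12 and 0.14 there.

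Among the VEGF ligands, Vegfb was higher in BPB than in control and was the only member called in any of the 3 comparisons, 1 of 10 in BPB against control, where 2.55% of all tested genes were called. Its level in BPB was 3.18 times that in control, with every BPB library above every control. Vegfc was 3.89 times as high in BPB by the ratio of means, also without overlap, and did not pass the test; 19.5% of all tested genes lay above control in BPB without overlap. Vegfa differed little between the group means.

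Vegfb encodes a ligand of VEGFR1 known for its roles in heart, muscle and fat. It had 15.6, 17.1 and 21.6 FPKM in BPB 1, 2 and 3 and 14.7, 7.63 and 13.9 FPKM in BPAF 1, 2 and 3, against 4.98, 7.94 and 4.16 FPKM in controls 1, 2 and 3. The BPB libraries were the highest of the 9, and of the BPAF libraries BPAF 2 lay below control 2 and the other 2 above all controls. The read counts behind these values were 491 to 623 in BPB, 240 to 406 in BPAF and 113 to 237 in control. Vegfb was therefore well covered in each library. In BPB against control its log2(FPKM + 1) was higher by 1.54 (SE 0.31, 95% interval 0.84 to 2.24), with an adjusted p of 0.0412 by limma. In BPAF against control the difference was 0.96 (0.26 to 1.66), with an unadjusted p of 0.0128 and an adjusted p of 0.304 by limma, which did not pass. The call in BPB rested on all 6 libraries of the comparison. Without BPB 1, 2 or 3 the adjusted p was 0.0724, 0.141 or 0.168 by limma, and without control 1, 2 or 3 it was 0.136, 0.0539 or 0.0913, with log2 differences of 1.37 to 1.77.

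Markers of several cell types differed between the same libraries. Summed over 10 smooth muscle markers, levels were 7525 to 12053 FPKM in BPB, 1069 to 3458 FPKM in BPAF and 3591 to 5718 FPKM in control. The log2 difference in BPB against control was positive for all 10, as for 8724 of 13743 tested genes. Of the 10, Synm and Synpo2 were called higher, where 2.05% of all tested genes were. All 9 urothelial markers were called higher in BPB as well. Of 5 tested skeletal muscle markers 4 had a positive difference in BPB, and 2, Ckm and Myh2, were called higher. Ckm, the muscle creatine kinase gene, had 60.0 ± 8.80 FPKM in BPB, 6.49 ± 8.07 in BPAF and 4.72 ± 1.08 in control (SD, n = 3). Myh2, a fast myosin gene, had 2.25 ± 0.448, 0.0237 ± 0.0259 and 0.0153 ± 0.0144 FPKM (SD, n = 3). The sum over 6 skeletal muscle markers was 193 to 489 FPKM in BPB, 11.4 to 112 FPKM in BPAF and 70.0 to 152 FPKM in control. These marker calls depended on which libraries were in the fit. With the 6 libraries of BPB and control alone, or without BPAF 1, all 9 urothelial markers, Synm, Synpo2, Ckm and Myh2 stayed called by limma. In each of them every BPB library lay above every control, as in 19.5% of all tested genes. Without BPB 2, without BPB 3 or without control 1, none of these urothelial, smooth muscle and skeletal muscle markers was called by limma. Without control 2 or without control 3 none of the 9 urothelial markers was called, and without BPB 1 only 2 of the 9. Ckm also lost its call without BPB 1, control 2 or control 3, and Synpo2 without control 3. With the replicate block or limma-voom, 0 of the 9 urothelial markers were called. Vegfb was high where the urothelial sum was high, but BPAF 3 had 13.9 FPKM of Vegfb with a urothelial sum of 12.7 FPKM and a smooth muscle sum of 1069 FPKM. Adipocyte markers, 7 genes of which none was called, summed to 718, 205 and 44.5 FPKM in BPB, 572, 3.61 and 278 FPKM in BPAF and 70.8 to 77.5 FPKM in control. BPAF 2, the exposed library with the lowest Vegfb, also had the lowest adipocyte sum, while BPB 3, with the highest Vegfb, had an adipocyte sum below the controls. The part of these cell types in the level of Vegfb was not tested, and in whole tissue fewer cells of a type and less RNA per cell cannot be told apart.

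Vegfc, the lymphatic growth factor gene, had 7.83, 3.68 and 3.29 FPKM in BPB and 3.81, 0.838 and 3.06 FPKM in BPAF, against 1.30, 1.57 and 0.927 FPKM in control. All BPB libraries lay above all controls, while BPAF 2 lay below them and the other 2 BPAF libraries above them. Vegfc was a weakly covered member, with 83 to 215 reads in BPB, 23 to 92 in BPAF and 22 to 41 in control. The log2 difference was 1.32 (0.41 to 2.23) in BPB, with an unadjusted p of 0.00932 and an adjusted p of 0.132 by limma, and 0.55 (-0.36 to 1.46) in BPAF, with an adjusted p of 0.579. The sum over 5 lymphatic markers was 10.3 to 21.8 FPKM in BPB, 3.88 to 22.9 FPKM in BPAF and 23.6 to 31.8 FPKM in control. That sum follows Lyve1, at 17.5 ± 2.82 FPKM in control (SD, n = 3), and by mean log2(FPKM + 1) the libraries overlapped, at 1.30 to 1.89 in BPB, 0.67 to 2.00 in BPAF and 1.85 to 2.12 in control. Pdpn, another of the markers, was 1.73 times as high in BPB as in control and was the only one with a higher mean. Lyve1, Mmrn1, Prox1 and Reln had BPB means of 0.361, 0.369, 0.542 and 0.756 times those of control. For Lyve1, Mmrn1 and Prox1 every BPB library lay below every control, as for 6.10% of all tested genes. Prox1 and Reln were too low to be tested. None of the 3 lymphatic markers that could be tested was called.

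Vegfa, the main angiogenic ligand gene, had 9.66, 8.82 and 9.12 FPKM in BPB and 7.16, 9.41 and 11.2 FPKM in BPAF, against 7.45, 13.6 and 4.16 FPKM in control. The controls spanned all 6 exposed libraries, with control 2 highest and control 3 lowest of the 9. The SD was 0.430 FPKM in BPB, 2.04 FPKM in BPAF and 4.77 FPKM in control. The log2 differences from control were 0.25 (-0.55 to 1.05) in BPB and 0.24 (-0.56 to 1.04) in BPAF, with adjusted p of 0.790 and 0.808 by limma. Both intervals reach well below and well above 0, so the direction of Vegfa was not resolved by 3 libraries a group. Without control 3 the difference was -0.12 in BPB and -0.13 in BPAF.

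Set against Vegfa and against Flt4, Vegfb and Vegfc were higher in BPB than in control, while the BPAF libraries overlapped the controls. The ratio of Vegfb to Vegfa was 1.62, 1.94 and 2.37 in BPB and 2.05, 0.811 and 1.24 in BPAF, against 0.669, 0.585 and 1.0 in control. The ratio of Vegfc to its receptor Flt4 was 9.16, 5.35 and 3.41 in BPB and 2.98, 0.827 and 3.44 in BPAF, against 0.629, 0.490 and 1.51 in control. Every BPB library lay above every control for both. These 2 ratios were chosen after their values were seen and have no test. Each sets a gene of the shortest length bin against a much longer gene, and the part of length in them was not tested.

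**Figure D2:**
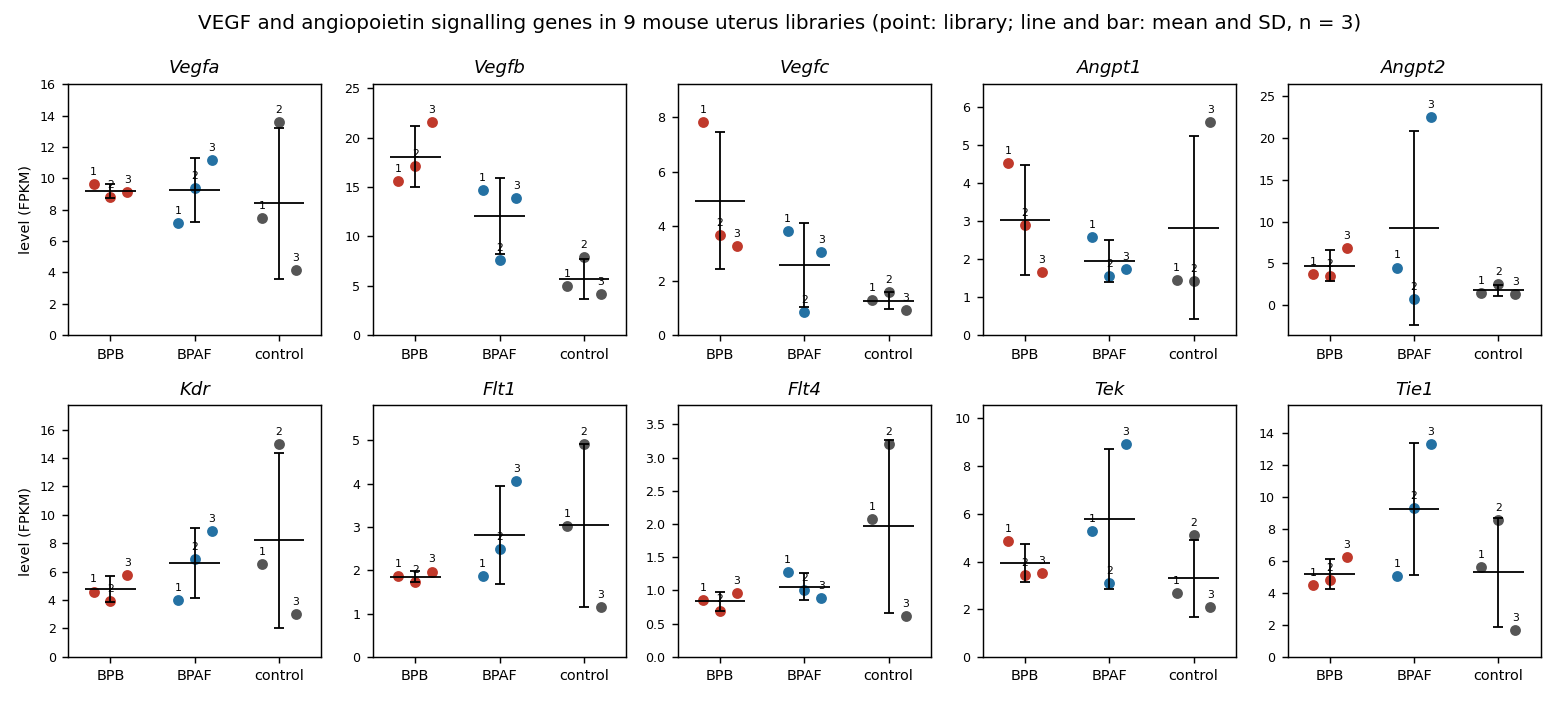
FPKM (vertical axes) of the 10 members in BPB, BPAF and control libraries, each point a library with its number, the line the mean and the bar the SD (n = 3). The BPB points lie above the control points without overlap for Vegfb, Vegfc and Angpt2, and the SD is largest in control for Vegfa, Kdr, Flt1, Flt4 and Angpt1.

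The receptor genes were not called in any comparison, and no receptor separated the libraries of BPB or BPAF from those of control. The 3 VEGF receptors had lower means in both exposed groups than in control, while the TIE receptors had means near or above it. Control 2 was the highest and control 3 the lowest of all 9 libraries for Kdr, Flt1 and Flt4.

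Kdr, which encodes VEGFR2, had 4.60, 3.95 and 5.75 FPKM in BPB and 3.97, 6.92 and 8.86 FPKM in BPAF, against 6.56, 15.0 and 3.02 FPKM in control. Flt1 followed Kdr in each library, with 1.86, 1.73 and 1.97 FPKM in BPB and 1.86, 2.50 and 4.07 FPKM in BPAF, against 3.02, 4.92 and 1.16 FPKM in control. Flt4, which encodes the VEGF-C receptor, was below 1 FPKM in all 3 BPB libraries, at 0.855, 0.688 and 0.965 FPKM, and had 1.28, 1.01 and 0.889 FPKM in BPAF, against 2.07, 3.21 and 0.613 FPKM in control. For all 3 receptors the exposed libraries fell inside the range of the controls. The log2 differences in BPB were -0.46 (-1.51 to 0.59) for Kdr, -0.38 (-1.21 to 0.44) for Flt1 and -0.59 (-1.33 to 0.15) for Flt4, with adjusted p of 0.402 to 0.682 by limma. In BPAF they were -0.11 (-1.16 to 0.94), -0.01 (-0.83 to 0.82) and -0.42 (-1.16 to 0.32), with adjusted p of 0.603 to 0.995. Without control 2 the Kdr difference was 0.05 in BPB and 0.40 in BPAF. Flt1 has a soluble form and Vegfa several splice forms, and the files hold 1 value per gene, so forms could not be told apart.

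The ratio of Flt1 to Kdr was close to constant. It was 0.403, 0.437 and 0.342 in BPB and 0.468, 0.361 and 0.459 in BPAF, against 0.461, 0.328 and 0.384 in control. The group means were 0.394 ± 0.0483 in BPB, 0.429 ± 0.0593 in BPAF and 0.391 ± 0.0663 in control (SD, n = 3). Although Kdr itself ranged from 3.02 to 15.0 FPKM, the decoy and the signalling receptor kept this ratio between 0.328 and 0.468 in all 9 libraries.

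Tek, which encodes the angiopoietin receptor TIE2, had 4.88, 3.43 and 3.51 FPKM in BPB and 5.28, 3.11 and 8.94 FPKM in BPAF, against 2.66, 5.13 and 2.08 FPKM in control. Tie1 had 4.49, 4.82 and 6.22 FPKM in BPB and 5.05, 9.27 and 13.3 FPKM in BPAF, against 5.60, 8.52 and 1.69 FPKM in control. BPAF 3 was the highest library for both, and control 3 the lowest. The log2 differences for Tek were 0.26 (-0.58 to 1.09) in BPB and 0.63 (-0.20 to 1.46) in BPAF, and for Tie1 0.15 (-0.91 to 1.21) and 0.80 (-0.26 to 1.86), with adjusted p of 0.489 to 0.918 by limma. The ratio of Tie1 to Tek averaged 1.36 ± 0.426 in BPB, 1.81 ± 1.05 in BPAF and 1.53 ± 0.657 in control (SD, n = 3), with all 3 ranges overlapping. Without control 3 the Tie1 difference in BPB was -0.37.

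Neither angiopoietin gene was called. For Angpt2, BPAF 3 stood apart from all other libraries. For Angpt1, control 3 at 5.60 FPKM stood apart from the other controls but not far above BPB 1 at 4.52 FPKM. Angpt2, the gene of the vessel-loosening ligand, had 3.79, 3.56 and 6.85 FPKM in BPB and 4.52, 0.809 and 22.4 FPKM in BPAF, against 1.43, 2.55 and 1.41 FPKM in control. All BPB libraries lay above all controls, while BPAF held both the lowest and the highest library of the 9. The log2 difference was 1.01 (-0.67 to 2.70) in BPB and 1.16 (-0.52 to 2.85) in BPAF, with adjusted p of 0.545 and 0.530 by limma. Without BPAF 3 the difference in BPAF was 0.20. Angpt2 overlaps the span of Mcph1, a gene on the other strand with 0.717 to 2.55 FPKM in the 9 libraries. Whether counting used the strand is not given, and whole gene spans were compared, not exons. The part of Mcph1 reads in the Angpt2 values was not tested.

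Angpt1, the gene of the vessel-stabilising ligand, had 4.52, 2.89 and 1.65 FPKM in BPB and 2.58, 1.55 and 1.74 FPKM in BPAF, against 1.46, 1.41 and 5.60 FPKM in control. Control 3 was the highest library of the 9, and the other 2 controls were the lowest. Angpt1 was the 1 member that was highest in control 3. Its log2 differences were 0.18 (-0.78 to 1.14) in BPB and -0.22 (-1.17 to 0.74) in BPAF, with adjusted p of 0.883 and 0.853 by limma. The difference in BPB turned to -0.08, -0.05 and -0.07 without BPB 1, control 1 and control 2, and that in BPAF to 0.26 without control 3. Angpt1 overlaps Gm17473 on the other strand, which was listed at 0 in 7 libraries and had 0.0874 FPKM in BPB 2 and 0.0657 FPKM in control 2.

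The ratio of Angpt2 to Angpt1, often read as the balance between loosening and stabilising signals, was 0.838, 1.23 and 4.16 in BPB and 1.75, 0.523 and 12.9 in BPAF, against 0.974, 1.82 and 0.252 in control. The libraries of the 3 groups overlapped, and BPAF 3 alone lay far above the rest. The means were 2.08 ± 1.81 in BPB, 5.05 ± 6.81 in BPAF and 1.01 ± 0.783 in control (SD, n = 3).

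Counted over the members, 1 of 10 was called higher in BPB and none lower, where 2.05% of all tested genes were called higher, 0.502% lower and 2.55% in all, 351 of 13743. At an unadjusted p under 0.05 in limma there were 2 of the 10, Vegfb and Vegfc, against 17.4% of all genes. For 3 of the 10 the BPB libraries stood apart from those of control, all above, where 19.5% of all genes lay above without overlap and 6.10% below. With 10 genes, these counts do not set the members apart from the tested genes. The median log2 difference of the 10 was 0.21, against 0.15 over all tested genes. With each library scaled by the median of its ratios to the 9-library mean, the median of all genes moved to -0.04 and that of the members to 0.01, and Vegfb was still called. Its call was lost with equal FPKM sums (log2 1.48, adjusted p 0.137 by limma) and with limma-voom on recovered reads (0.0710). In BPAF none of the 10 was called by limma, against 0.0218% of all genes, 3 in number (0.00728% higher and 0.0146% lower), and 1 of the 10 had an unadjusted p under 0.05, against 12.8% of all genes. No member separated the BPAF libraries from those of control, where 16.8% of all genes did. The median of the members was 0.39 in BPAF, against 0.21 over all genes.

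**Figure D3:**
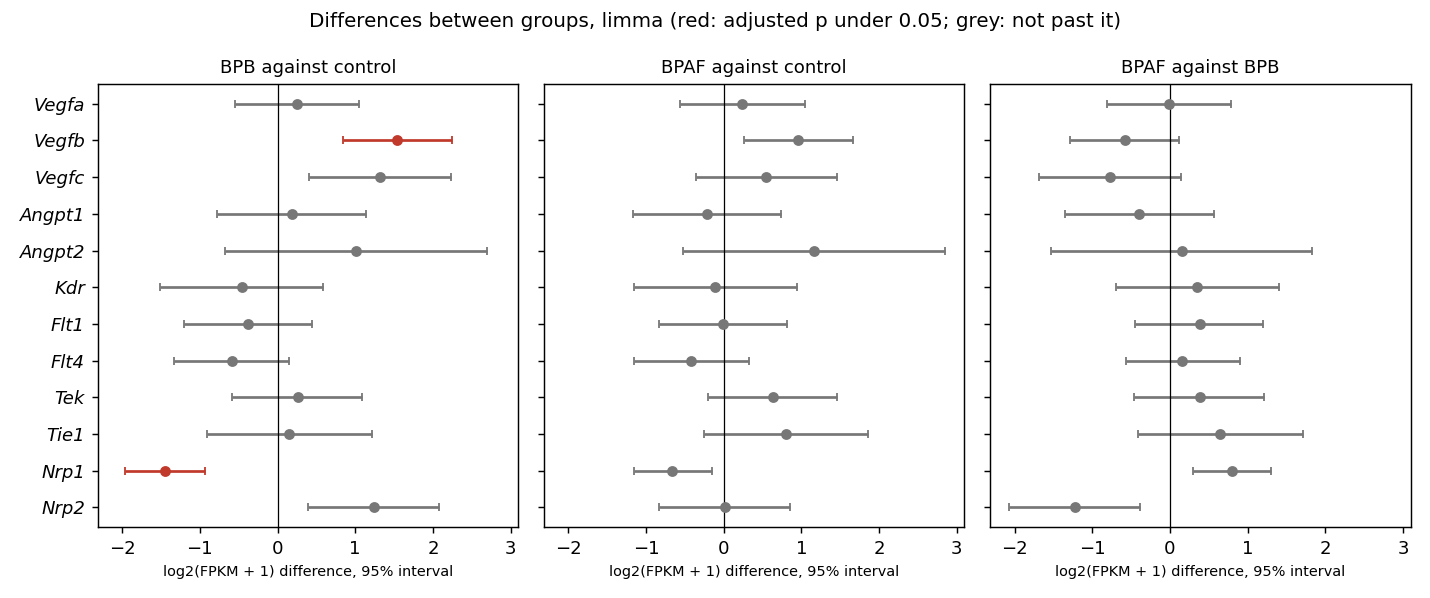
Difference in log2(FPKM + 1) (horizontal axes) of the 10 members and the co-receptor genes Nrp1 and Nrp2 in BPB against control, BPAF against control and BPAF against BPB, with points for the estimate and bars for the 95% interval from limma. Vegfb at 1.54 and Nrp1 at -1.45 in BPB against control are the 2 red points, which passed an adjusted p of 0.05.

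The levels ordered the members differently in each group. In BPB, Vegfb at 18.1 ± 3.09 FPKM stood above Vegfa at 9.20 ± 0.430 FPKM, and Vegfa above all receptors, without overlap of the libraries. Below these, Tie1, Vegfc, Kdr, Angpt2, Tek, Angpt1 and Flt1 followed in that order, each overlapping its neighbour, and Flt4 at 0.836 ± 0.139 FPKM was the lowest without overlap. In BPAF, Vegfb at 12.1 ± 3.87 FPKM led Vegfa at 9.27 ± 2.04 FPKM, and Flt4 at 1.06 ± 0.199 FPKM was again the lowest, below Angpt1 at 1.96 ± 0.552 FPKM without overlap. All other neighbours in BPAF overlapped. In control the order began with Vegfa at 8.39 ± 4.77 FPKM, Kdr at 8.19 ± 6.14 FPKM and Vegfb at 5.69 ± 1.99 FPKM and ended with Angpt2 at 1.80 ± 0.655 FPKM and Vegfc at 1.27 ± 0.324 FPKM. Every pair of neighbours in control overlapped.

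The members were also set against the endothelium, the main cell type known to carry the 5 receptors. The mean log2(FPKM + 1) of 20 endothelial markers was 3.02, 2.67 and 2.85 in BPB and 2.95, 3.22 and 3.65 in BPAF, against 2.92, 3.28 and 2.46 in control. BPAF 3 and control 2 were the highest and control 3 the lowest, as for several receptors. No endothelial marker was called in BPB or BPAF against control by limma. At an unadjusted p under 0.05 in limma there were 4 and 3 of 20, against 17.4% and 12.8% of all tested genes. The list medians were 0.01 in BPB and 0.39 in BPAF, against 0.15 and 0.21 over all tested genes. Relative to this mean, Kdr lay at -0.33 ± 0.22 in BPB, -0.41 ± 0.21 in BPAF and 0.09 ± 0.59 in control (log2, SD, n = 3). Flt4 lay at -1.97 ± 0.14, -2.24 ± 0.49 and -1.43 ± 0.30 in the same groups, and Flt1 at -1.34 ± 0.15, -1.39 ± 0.07 and -0.99 ± 0.32. Both had means more than 1 SD of the controls below the control mean in the 2 exposed groups, while Kdr lay within 1 SD of it. An SD of 3 libraries is a rough yardstick. For Flt1 both exposed groups overlapped the controls, with control 3 at -1.35. For Flt4 BPAF 1 at -1.76 overlapped control 3 at -1.77. The BPB libraries of Flt4, at -2.13, -1.91 and -1.88, lay below the controls on this scale. Tie1 lay at -0.23 ± 0.30, -0.01 ± 0.30 and -0.42 ± 0.53, within 1 SD of the control mean, and Tek at -0.55 ± 0.11, -0.61 ± 0.50 and -0.85 ± 0.19, more than 1 SD above it. No test was made on this scale.

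Vegfb on the same scale lay at 1.40 ± 0.32 in BPB, 0.39 ± 0.58 in BPAF and -0.18 ± 0.14 in control, so its separation between BPB and control was about as wide relative to the endothelium as it was alone. Vegfc lay at -0.36 ± 0.44 in BPB, -1.55 ± 0.83 in BPAF and -1.72 ± 0.20 in control, and Angpt2 at -0.37 ± 0.45, -0.65 ± 1.64 and -1.43 ± 0.23. Vegfa lay at 0.50 ± 0.12 in BPB, 0.07 ± 0.10 in BPAF and 0.22 ± 0.34 in control.

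**Figure D4:**
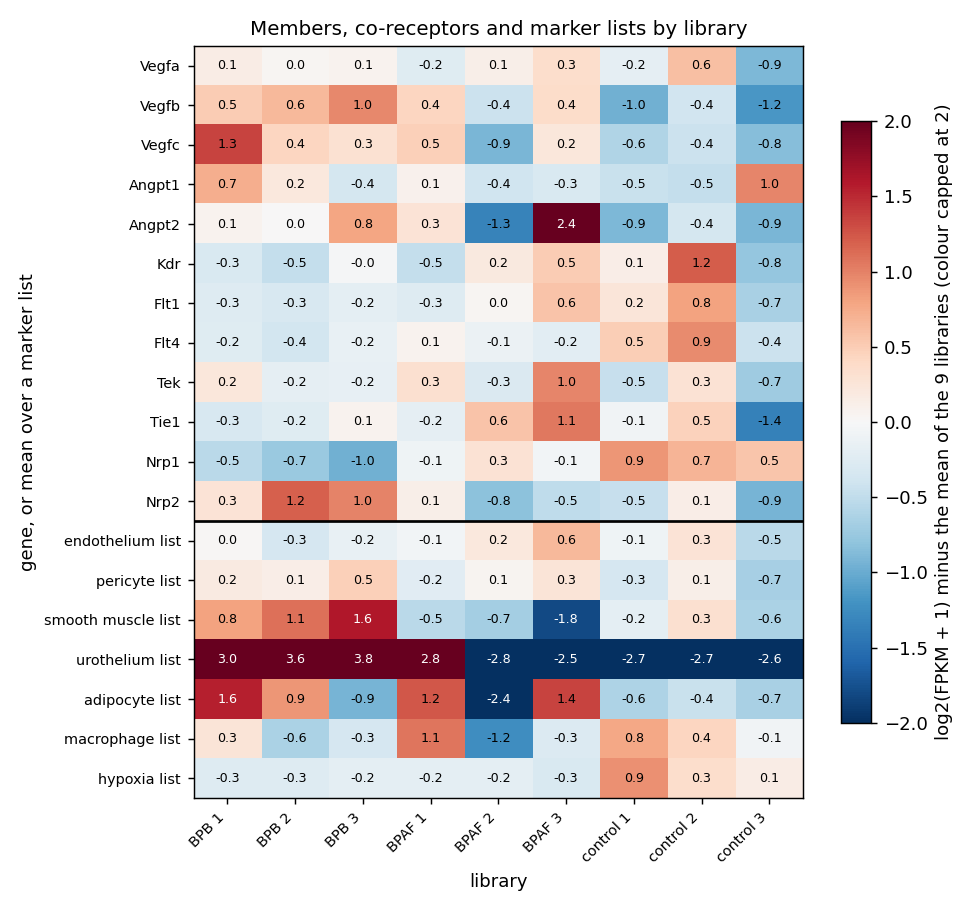
Difference of log2(FPKM + 1) from the mean of the 9 libraries for each member, Nrp1 and Nrp2 (rows above the line) and for the mean of 7 gene lists (rows below it), by library, with the colour capped at 2. Control 2 is high and control 3 low for the VEGF receptors, BPAF 3 is high for Angpt2, Tek and Tie1, and the urothelium row is high in BPB 1 to 3 and BPAF 1.

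Next to the members, the co-receptor gene Nrp1 was lower in BPB than in control. Neuropilin 1 binds VEGF-A and VEGF-B and strengthens signalling through VEGFR2. Nrp1 had 12.0, 10.4 and 8.69 FPKM in BPB and 16.7, 22.1 and 17.3 FPKM in BPAF, against 33.8, 29.4 and 26.7 FPKM in control. The 3 groups did not overlap, with BPB lowest and control highest. In BPB it fell by 1.45 on the log2 scale (interval -1.96 to -0.94, SE 0.23; adjusted p of 0.0214 by limma), to a level 2.89 times lower than in control. In BPAF the difference was -0.66 (-1.16 to -0.15), with an unadjusted p of 0.0168 and an adjusted p of 0.309 by limma. The call in BPB was lost without BPB 2 or BPB 3 (adjusted p of 0.108 for each by limma), without control 1 (0.0931) and without control 2 (0.0539).

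Nrp1 was the 1 gene called among 5 tested pathway neighbours in BPB, and none was called in BPAF, against 2.55% and 0.0218% of all tested genes. Nrp2, which encodes the co-receptor of VEGF-C, was added after its values were seen. It had 8.32, 16.7 and 14.4 FPKM in BPB and 7.37, 3.39 and 4.43 FPKM in BPAF, against 4.64, 7.49 and 3.07 FPKM in control, and every BPB library was above every control. Its difference in BPB was 1.24 (SE 0.37) with an adjusted p of 0.128 by limma, and in BPAF 0.01 with an adjusted p of 0.993. Pgf, which encodes placental growth factor, Figf, which encodes VEGF-D, and Ptprb, which encodes a phosphatase of TIE2, had overlapping libraries and adjusted p of 0.778 to 0.933 in BPB by limma. Angpt4 was too low to be tested, at 0.256 to 1.70 FPKM.

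Among other angiogenic genes, 2 were called in BPB, Fgf1 higher and Adamts1 lower, of 17 tested, and none in BPAF. The shares of all tested genes called were 2.55% in BPB and 0.0218% in BPAF. Fgf1 encodes acidic fibroblast growth factor, a mitogen for endothelium. It had 4.04, 3.88 and 6.30 FPKM in BPB and 3.15, 0.793 and 1.04 FPKM in BPAF, against 0.767, 1.19 and 0.815 FPKM in control. BPAF 1, which also held urothelial markers, was the only BPAF library above the controls. The part of cell types in the level of Fgf1 was not tested. Fgf1 rose in BPB by 1.56 (SE 0.34) with an adjusted p of 0.0478 by limma, and the call was lost without any 1 of the 6 libraries compared (adjusted p of 0.0889, 0.141 and 0.192 without BPB 1, 2 and 3, and 0.153, 0.0880 and 0.103 without control 1, 2 and 3), and also without BPAF 3 (0.0548) and under median-ratio scaling (0.0559). Adamts1 encodes a secreted protease that binds VEGF-A and limits angiogenesis. It had 18.6, 8.90 and 21.9 FPKM in BPB and 9.32, 14.3 and 14.0 FPKM in BPAF, against 46.1, 95.5 and 71.5 FPKM in control, with every exposed library below every control. The log2 difference was -2.07 (SE 0.38) in BPB, with an adjusted p of 0.0310 by limma, and -2.37 (SE 0.38) in BPAF, with an unadjusted p of 0.000135 and an adjusted p of 0.147. The BPB call was lost without any 1 of the 6 libraries compared (adjusted p of 0.0542, 0.121 and 0.101 without BPB 1, 2 and 3, and 0.0884, 0.0785 and 0.0765 without control 1, 2 and 3).

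Of 13 genes of the endothelial response, 1 was called in BPB and none in BPAF, against 2.55% and 0.0218% of all tested genes. Unc5b, a netrin receptor gene of endothelial tip cells, had 6.05, 10.9 and 10.8 FPKM in BPB and 2.69, 2.70 and 1.15 FPKM in BPAF, against 1.38, 2.40 and 1.33 FPKM in control. The BPAF libraries overlapped the controls and the BPB libraries stood apart. Unc5b rose in BPB by 1.90 in log2(FPKM + 1), with SE 0.32 and an adjusted p of 0.0258 by limma, while the difference in BPAF was 0.21 with an adjusted p of 0.808. In BPAF against BPB it was -1.69, with an adjusted p of 0.0918. The call in BPB was lost without BPB 2 (0.119), BPB 3 (0.118), control 1 (0.0943) and control 3 (0.0673). The median log2 difference of the endothelial markers in BPB was 0.01. Which cells carried Unc5b was not measured, and the part of cell types in the levels of Unc5b, Nrp1, Nrp2 and Adamts1 was not tested.

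**Figure D5:**
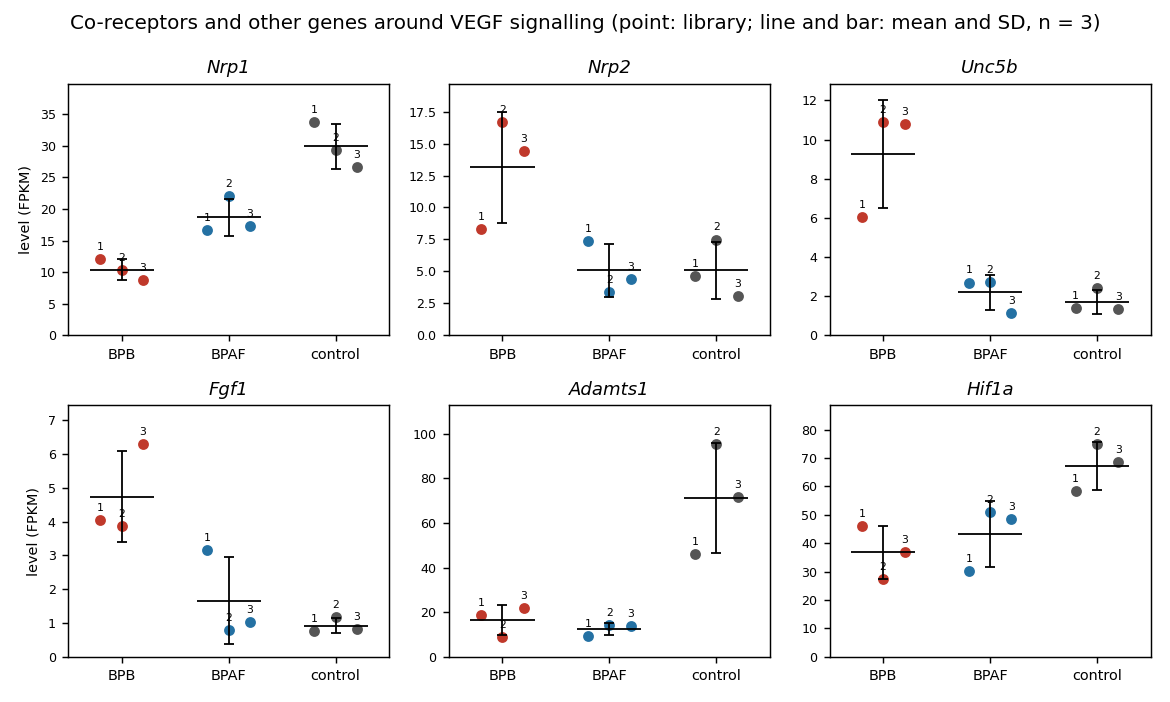
FPKM (vertical axes) of Nrp1, Nrp2, Unc5b, Fgf1, Adamts1 and Hif1a in BPB, BPAF and control libraries, with points for libraries, a line for the mean and a bar for the SD (n = 3). Nrp1 separates all 3 groups, and Adamts1 and Hif1a lie below the controls in every exposed library.

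Hypoxia is the best known inducer of Vegfa, and 15 other hypoxia-induced genes had mostly negative differences from control. The direction of Vegfa itself was not resolved. None of the 15 was called in BPB or BPAF by limma. At an unadjusted p under 0.05 in limma there were 6 and 4 of them, against 17.4% and 12.8% of all tested genes. The log2 difference was negative for 13 of 15 in BPB and 14 of 15 in BPAF, with medians of -0.83 and -0.70, against medians over all tested genes of 0.15 and 0.21. The summed level was 233 to 274 FPKM in BPB, 221 to 398 FPKM in BPAF and 401 to 614 FPKM in control, so no exposed library reached the controls. The mean log2(FPKM + 1) of the list was 3.16 to 3.28 over the 6 exposed libraries, against 3.62 to 4.39 in control, with control 1 the highest.

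The 3 hypoxia genes with the smallest p in BPB were Ankrd37, Ddit4 and Car9. Ankrd37, an ankyrin repeat gene, averaged 1.04 ± 0.0797 FPKM in BPB, 1.16 ± 0.302 in BPAF and 4.87 ± 2.92 in control (SD, n = 3), with adjusted p of 0.120 and 0.304 by limma against control. Ddit4, which encodes an inhibitor of mTORC1, averaged 29.3 ± 7.80 FPKM in BPB, 34.2 ± 11.9 in BPAF and 67.3 ± 23.8 in control (SD, n = 3), with adjusted p of 0.155 and 0.352 by limma. Car9, which encodes a membrane carbonic anhydrase, averaged 0.534 ± 0.416 FPKM in BPB, 1.49 ± 1.29 in BPAF and 5.0 ± 5.47 in control (SD, n = 3), with adjusted p of 0.204 and 0.497 by limma. All 3 were lower in both exposed groups by their means and none passed. Control 2 was the lowest control for each, at 1.50, 39.9 and 1.24 FPKM.

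None of 6 tested HIF regulators was called by limma. At an unadjusted p under 0.05 in limma there were 1 in BPB and 0 in BPAF, against 17.4% and 12.8% of all tested genes. Hif1a, the gene of the oxygen-sensitive subunit, had 45.9, 27.5 and 36.8 FPKM in BPB and 30.1, 51.1 and 48.6 FPKM in BPAF, against 58.2, 75.0 and 68.6 FPKM in control. All 6 exposed libraries lay below all controls. The difference was -0.88 in BPB and -0.65 in BPAF, with adjusted p of 0.164 and 0.397 by limma. HIF-1α is regulated mostly at the protein level, which was not measured. Epas1, which encodes HIF-2α, averaged 17.7 ± 3.48 FPKM in BPB, 26.4 ± 12.9 in BPAF and 28.7 ± 8.40 in control, and Egln1, an oxygen sensor gene, 25.6 ± 5.33, 26.4 ± 10.1 and 34.6 ± 15.5 FPKM (SD, n = 3).

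BPAF and BPB were compared at the same dose and time in 3 libraries each, and no member was called by limma, with 0 of 10 at an unadjusted p under 0.05, against 6.75% of all genes. Over all genes 33 were called (0.240%), all lower in BPAF, and 0 with the replicate number as a block. Whether that number pairs the libraries of BPAF and BPB was not settled. Vegfb was the 1 member without overlap, with every BPAF library below every BPB library, where 6.41% of all genes lay below and 6.54% above without overlap. Its log2 difference was -0.58 (-1.29 to 0.12), and that of Vegfc was -0.77 (-1.68 to 0.14), with adjusted p of 0.849 and 0.842 by limma. Vegfa was closest to 0, at -0.01 (-0.81 to 0.79). The intervals for Kdr at 0.35 (-0.70 to 1.40), Flt1 at 0.38 (-0.45 to 1.20), Flt4 at 0.16 (-0.57 to 0.90), Tek at 0.38 (-0.46 to 1.21), Tie1 at 0.65 (-0.41 to 1.71), Angpt1 at -0.40 (-1.35 to 0.56) and Angpt2 at 0.15 (-1.53 to 1.83) also hold 0. Each of the 10 intervals is wide, and a p that did not pass does not show that the 2 bisphenols acted alike.

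Neither co-receptor gene was called between the 2 bisphenols. Nrp1 was higher in BPAF than in BPB by 0.80 (0.29 to 1.30), with every BPAF library above every BPB library and an adjusted p of 0.309 by limma. Nrp2 was lower in BPAF by 1.22 as a difference of -1.22 (-2.07 to -0.38), with every BPAF library below every BPB library and an adjusted p of 0.377. The median difference of the 10 members was 0.16, against 0.07 over all tested genes.

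Within the set, some members rose and fell together from library to library. Over the 9 libraries, Pearson's r of log2(FPKM + 1) was 0.96 for Kdr with Flt1, 0.84 for Vegfa with Tie1, 0.82 for Vegfb with Vegfc and 0.81 for Angpt2 with Tek. It was -0.81 for Angpt1 with Tie1 and -0.07 for Vegfb with Kdr. The libraries share groups, depth and the length effect of control 3, so these values describe the 9 libraries and carry no p.

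The tested genes most like each member were found by the same r over the 9 libraries, with 3 taken per member. For Kdr, Flt1 and Tie1 they included known endothelial genes. For Kdr they were Pgm3, an enzyme of sugar nucleotide synthesis (0.968), Flt1 (0.962) and Plvap, a gene of fenestrated endothelium (0.961). For Flt1 they were Arhgap31 (0.968), Kdr (0.962) and Eng, the endoglin gene of endothelium (0.961). For Tie1 they were Fnip2 and Epm2aip1 (0.984 each) and Robo4, an endothelial guidance receptor gene (0.976). For Tek they were Zdhhc17 (0.973), Abcg2, a transporter gene (0.968), and Zbtb46 (0.968).

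The ligands and Flt4 had other neighbours by the same measure. The closest to Vegfb were Dzip1l (0.984), Rnf144b (0.982) and Rdh5, a retinol dehydrogenase gene (0.981), and those to Vegfa were Slc39a14, a zinc transporter gene (0.987), Zdhhc8 (0.981) and Zc3hc1 (0.980). Vegfc was closest to Prph, the peripherin gene of peripheral neurons (0.965), Ogfrl1 (0.965) and Slc35d2 (0.948). Angpt1 was closest to Pex13 (0.986), Cox6c (0.970) and Echdc1 (0.959), which are genes of peroxisomes, the respiratory chain and ethylmalonyl-CoA removal. Angpt2 was closest to Rragd (0.967), Abca1, a cholesterol exporter gene (0.966), and Rb1 (0.962), and Flt4 to Spsb1 (0.973), Aebp1 (0.966) and Tmem119 (0.959). With 13743 genes and 9 libraries, an r of this size is found for every member and says nothing of shared control.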

How the data were processed

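RNA was sequenced from 9 uterus libraries made with a stranded mRNA kit, per the labels' protocols. The deposited files hold 1 FPKM value per gene symbol and library, computed by the authors. The file headers name no unit, and FPKM was read from the values: multiplied by transcript length, 84.8% to 86.5% of the values of single-transcript genes lay within 0.01 of whole reads. For aligner, build and strand setting, nothing is given in the sources used here. Of 34745 lines, 126 with repeated symbols were left out. Genes with at least 1 FPKM in 3 or more libraries, 13743 in number, were tested with limma 3.58.1 (R 4.3.3, trend and robust estimation) on log2(FPKM + 1), which understates changes of low genes, in 1 fit of all 9 libraries. Tests were two-sided, with Benjamini-Hochberg adjustment over all genes and calls at 0.05. Reads were recovered from the values, within 0.02 of whole numbers, for 13738 tested genes, 99.96%. GENCODE M21 gave lengths and overlapping genes, and RefSeq gave promoter sequences.

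Same-numbered libraries of BPAF and BPB deviated together (r = 0.34, 0.34 and 0.48). Differently numbered libraries of BPB and control did so to a like degree, BPB 1 with control 3 (0.45), BPB 2 with control 1 (0.33) and BPB 3 with control 2 (0.37). These values therefore do not establish a pairing, and the replicate block was fitted only as an alternative. Named genes are the members, called genes of 5 lists or, failing a call, the 3 with the smallest p in BPB, and the 3 genes most like each member. Nrp2 was added after its values were seen. Members and lists were chosen with earlier results of these data known. The alternatives tried were other filters, pseudocounts, scalings and limma settings, a replicate block, libraries left out, and limma-voom on recovered reads. The analysis was tested on simulated data.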

Additional observations from a re-analysis of the deposited data

How the results depend on the processing

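The number of genes called in BPB against control, 351, was 163 with no filter, 152 and 66 with pseudocounts of 0.1 and 0.01, 209 with equal FPKM sums, 22 with limma-voom on recovered reads and 1 to 427 with single libraries left out (1 without control 1, 1 without BPB 2, 3 without BPB 3). Under each of these except the left-out BPAF libraries, and without control 3 and BPAF 1 together, which was added after seeing the data, 0 members were called, since Vegfb passed under 8 of 21 alternatives (log2 1.33 to 1.77, adjusted p 0.0266 to 0.168 by limma). Nrp1 passed under 14, Unc5b under 12, Adamts1 under 10 and Fgf1 under 7 of 21. In BPAF against control the 3 genes called became 0 with the 6 libraries of the comparison alone and without control 3 and BPAF 1, 1 with equal FPKM sums and 1 to 10 with single libraries left out. In BPAF against BPB the 33 became 11 with no filter, 8 with equal FPKM sums, 227 without control 3 and BPAF 1, 0 to 234 with single libraries left out (234 without BPAF 1), and 0 with both pseudocounts, with the 6 libraries alone and with limma-voom. With median-of-ratios scaling 204 genes were called higher and 108 lower in BPB, 65.4% higher in place of 80.3%. The cause of these changes was not tested.

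As for pairing, with the replicate number as a block 19 genes and 0 members were called in BPB against control, 0 genes in BPAF against control and 0 in BPAF against BPB, also with the 6 libraries of BPAF and BPB alone, and Vegfb had an adjusted p of 0.0976 by limma. Same-numbered libraries correlated at -0.37, -0.13 and -0.40 between BPB and control and at -0.16, -0.08 and -0.25 between BPAF and control. Differently numbered libraries of BPB and control reached 0.45, so an r of this size does not show a pairing in any comparison.

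Signs turned for genes near 0 that were not called. In BPB against control they were Angpt1 (-0.02) and Tie1 (-0.03) under median-of-ratios scaling, and Vegfa (-0.12) and Tie1 (-0.37) without control 3 and BPAF 1. In BPAF against control they were Flt1 with the pseudocounts (0.03 and 0.04) and limma-voom (0.04), Vegfa (-0.02) under median-of-ratios scaling, and Nrp2 under median-of-ratios scaling (-0.23) and equal FPKM sums (-0.08). Without control 3 and BPAF 1 they were Angpt1 (0.12), Unc5b (-0.01), Epas1 (0.24), Fgf1 (-0.04) and Nrp2 (-0.50). In BPAF against BPB they were Angpt2 with the pseudocounts (-0.02 and -0.05) and limma-voom (-0.08), and Vegfa (0.15) and Ankrd37 (-0.03) without control 3 and BPAF 1. With single libraries left out, the ranges in BPB against control were -0.12 to 0.63 for Vegfa, -0.94 to 0.05 for Kdr, -0.08 to 0.66 for Angpt1 and -0.37 to 0.54 for Tie1. In BPAF against control they were -0.13 to 0.62 for Vegfa, -0.59 to 0.40 for Kdr, -0.40 to 0.33 for Flt1, -0.46 to 0.26 for Angpt1, -0.50 to 0.26 for Epas1, -0.00 to 0.60 for Fgf1 and -0.25 to 0.29 for Nrp2. In BPAF against BPB they were -0.15 to 0.15 for Vegfa, -0.81 to 1.03 for Angpt2, -0.03 to 0.17 for Ankrd37, -0.07 to 0.40 for Ddit4 and -0.26 to 0.31 for Egln1. Recovered reads per library were 23 to 215 for Vegfc in the exposed libraries and 22 to 41 in control.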

Other observations

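Pericytes are the cells that wrap small vessels and supply angiopoietin 1. The sum over 7 pericyte markers was 177 to 270 FPKM in BPB and 177 to 236 FPKM in BPAF, against 99.3 to 148 FPKM in control. Rgs5 made up most of the difference, at 127 ± 51.9 FPKM in BPB and 132 ± 23.9 in BPAF, against 55.9 ± 18.6 in control (SD, n = 3). By mean log2(FPKM + 1) the BPB libraries, at 3.99 to 4.33, also lay above the controls, at 3.19 to 3.97. The BPAF libraries, at 3.62 to 4.11, overlapped the controls on that scale. None of the 7 was called in either comparison by limma. At an unadjusted p under 0.05 in limma there were 2 and 1 of them, against 17.4% and 12.8% of all tested genes. The median log2 differences were 0.62 in BPB and 0.46 in BPAF, with Cspg4 at -0.56 and Mcam at -0.22 in BPAF.

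Macrophages are another source of VEGF ligands in tissue. Their 7 markers summed to 126, 52.1 and 72.0 FPKM in BPB and 263, 31.1 and 86.0 FPKM in BPAF, against 175, 134 and 93.2 FPKM in control, with the groups overlapping. BPAF 1 had the highest sum and BPAF 2 the lowest, and none of the 7 was called in BPB or BPAF against control by limma. At an unadjusted p under 0.05 in limma there was 1 in each, against 17.4% and 12.8% of all tested genes.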
